A study of Mus musculus with 9 samples.

Results

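ATP-binding cassette (ABC) transporters of subfamilies A, B, C and G were followed in colon scrapings of mice fed heme. The genes were chosen by symbol alone: every gene whose annotated symbol begins with Abca, Abcb, Abcc or Abcg and a digit and that had a probeset assigned to a single gene, with the probeset of highest mean kept. This gave 41 of the 19938 genes on the array, namely 16 of subfamily A, 9 of B, 10 of C and 6 of G. Of these, 31 had a mean over all pools at or above 4.72 log2, the 25th percentile of all genes, and were tested together with all 14953 genes past that filter.

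The animals were male C57BL/6J mice of 9 to 11 weeks. All groups shared a run-in of 1 week on a control diet with 40% of energy from fat. The control group then stayed on that diet and was sampled on days 0, 2, 4, 7 and 14, and the heme group ate the same diet with heme at 0.2 µmol per g and was sampled on days 2, 4, 7 and 14. RNA of the scraped epithelium was pooled from 4 mice per pool (3 in the control pool of day 2) and each pool was read on 1 Affymetrix array, so no diet and day has a replicate and every p-value here measures the spread between pools of different days. A pooled array also cannot show how much animals differed.

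ABC transporters are membrane proteins that use ATP to move lipids, bile salts, drugs, conjugates and heme-related compounds across membranes. Subfamily A and part of G export cholesterol and phospholipids, subfamily B holds the drug exporter P-glycoprotein and several mitochondrial transporters, and subfamily C exports glutathione, glucuronide and sulfate conjugates. In the colon, P-glycoprotein and Abcg2 sit in the luminal membrane and Abcc3 in the basolateral membrane of epithelial cells.

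The array medians lay between 5.895 and 5.963 log2. Scraping can carry other cells along, so markers of other cell types were read too. Of 8 colonocyte markers all 8 passed the filter, and their summed log2 level was 93.95 to 94.28 in the control pools and 94.77 to 95.20 in the heme pools. The water channel Aqp8 was the 1 called between diets (limma adjusted p = 0.0113, up to 0.0536 without control day 4 or heme day 7). Without it the sums overlapped, at 82.53 to 82.67 in control and 82.51 to 82.85 in heme pools. On day 14, when 27.1% of all genes were called, 3 of the 8 were called higher and 2 lower. Adipocyte markers, 4 of 5 past the filter, summed to between 26.51 and 28.30 in control and between 28.34 and 29.00 in heme pools, and overlapped without Cidec. Of these 4, 2 were called higher on day 14, against 11.3% of all genes. The summed levels of every other marker list overlapped between diets. Enteroendocrine markers, 7 of 7 past the filter, nonetheless averaged -0.43 and -0.71 log2 from the control mean in the heme pools of days 7 and 14. On days 2 and 4 these averages were -0.04 and -0.06. Of the 7, 2 were called lower on day 7 and 4 on day 14 (Chga by 1.36), against 0.762% and 15.8% of all genes. Of 5 goblet markers 2, Muc2 and Clca1, were called lower on day 14, when 15.8% of all genes were. The part of these cells in the late transporter values was not tested. Smooth muscle markers, 6 of 6 past the filter, summed to between 43.47 and 59.41 in control and between 42.56 and 55.09 in heme pools, and fibroblast markers, 6 of 6, to between 44.73 and 51.86 and between 44.23 and 50.06. Exocrine pancreas markers stood above the control mean by an average of 3.17 log2 in the control pool and 3.74 in the heme pool of day 2, and below it in the other 7 pools. In such bulk samples, fewer cells of a type and less RNA per cell cannot be told apart.

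Promoter sequences were at hand for 33 of the 41 transporters (RefSeq, GRCm38.p6). They are shown for members on which the results below turn. Abcg5 and Abcg8, the partners of the sterol exporter, start back to back on opposite strands with 109 bases between their starts. That shared stretch, chr17:84683012-84683120, printed on the plus strand so that Abcg8 begins just after its right end, reads
Abcg5-Abcg8: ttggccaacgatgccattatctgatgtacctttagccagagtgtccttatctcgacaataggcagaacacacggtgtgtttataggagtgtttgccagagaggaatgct
The 250 bases before the start of Abcb6, whose difference between diets was the most often called, lie at chr1:75180393-75180642 on the minus strand and read
Abcb6: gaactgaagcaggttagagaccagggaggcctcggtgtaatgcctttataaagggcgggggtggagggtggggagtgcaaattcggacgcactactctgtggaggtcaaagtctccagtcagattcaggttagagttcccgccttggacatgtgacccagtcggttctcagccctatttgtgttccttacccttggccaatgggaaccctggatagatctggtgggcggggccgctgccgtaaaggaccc

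The letters TGACNNNGC, the core bound by Nrf2 and its small Maf partners, were searched on both strands in the 250 bases before each start. They were found in 4 of 38 windows of the transporters (10.5%), against 10.2% of all 32851 windows, so the transporters held the motif about as often as any gene. The 4 windows belong to Abcc2, Abcc4 (both starts) and Abcc10. The windows of Abcb6, Abcb1a, Abcg2 and Abcc5 held no match, and Abcc3 had no window to search. Abcc10 had a log2 fold change of -0.07 between diets, and its match is not printed. For Abcc2 and Abcc4, which were among the transporters with higher values on heme, the match is shown in capitals with up to 30 bases on each side, at chr19:43782180-43782248 (plus strand), chr14:118706220-118706274 and chr14:118676932-118676984 (both minus strand). The matches lie 98 to 90, 25 to 17 and 23 to 15 bases before the start, and in the middle sequence the motif reads on the opposite strand.
Abcc2: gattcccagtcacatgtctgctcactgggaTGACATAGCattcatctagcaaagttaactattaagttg
Abcc4, first start: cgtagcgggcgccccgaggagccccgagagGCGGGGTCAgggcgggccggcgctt
Abcc4, inner start: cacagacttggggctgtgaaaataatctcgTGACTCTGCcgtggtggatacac
Direct repeats of AGGTCA with 1 base (DR1) or 4 bases (DR4) between, letters bound by nuclear receptors, were also searched on both strands. They were in 0 of the 38 transporter windows and in 0.0335% and 0.0152% of all windows. Letters this rare would be absent from most sets of 38 windows, so the 0 cannot tell the transporters from other genes. Only exact letters were searched, and receptor sites with other letters would be missed.

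Between the diets, 3 transporters rose on heme in limma with Benjamini-Hochberg adjustment over all genes tested, and none fell. They were Abcb6, Abcb1a and Abcc3. These are 9.68% of the 31 tested members, against 0.669% of all genes tested (100 of 14953). By direction, 0.595% of all genes were called higher and 0.0736% lower. At an unadjusted p under 0.05 there were 8 higher and 3 lower members, against 1254 higher and 1293 lower of all 14953 genes. The median log2 fold change of all 31 was -0.0114, against -0.002 over all genes tested, and 15 of the 31 were above 0.

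The subfamilies differed in where their members lay. Subfamily B had 2 of 7 tested members called higher and a median log2 fold change of 0.12, and subfamily C had 1 of 9 and 0.09. Subfamily A had 0 of 9 called in limma (0 higher and 2 lower at an unadjusted p under 0.05) and a median of -0.07, and subfamily G 0 of 6 (1 higher and 1 lower) and -0.05. Among the 8 highest log2 fold changes were 4 members of C, 3 of B, 1 of G and 0 of A, and among the 8 lowest were 5 of A, 2 of G, 1 of C and 0 of B. These counts and medians describe the subfamilies, and the difference between subfamilies was not tested. Subfamilies were read from the symbols, so ABC genes with other symbols, such as Cftr, Tap1 and Tap2, are not counted in them. Cftr, Tap1 and Tap2 each had a lower mean on heme. The counts and medians of subfamilies therefore hold only for genes named by the symbol rule.

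**Figure D1:**
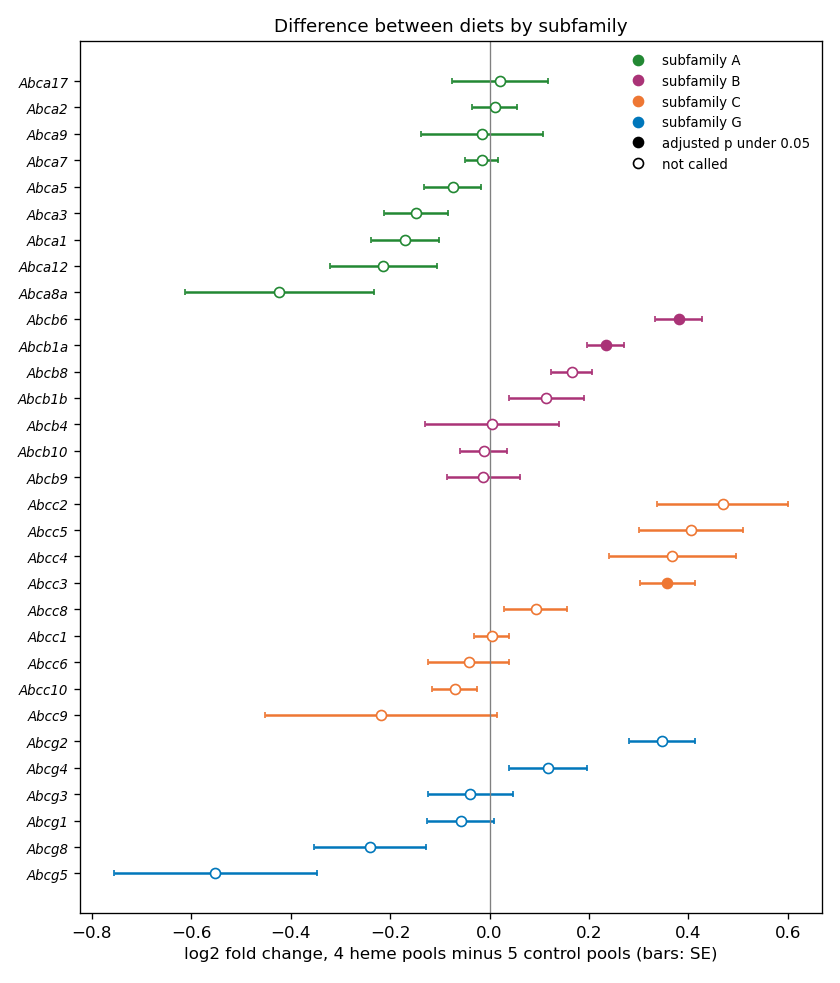
Log2 fold change of the 31 tested transporters, 4 heme pools minus 5 control pools, with bars for the standard error; filled points were called at an adjusted p under 0.05. The 3 filled points are Abcb6, Abcb1a and Abcc3, and subfamily A lies mostly left of 0.

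Read by role, the exporters of drugs and conjugates held 6 of the 8 members that were higher at an unadjusted p under 0.05. Of 10 such genes (Abcb1a, Abcb1b, Abcc1 to Abcc6, Abcc10 and Abcg2), 2 were called higher, 0 were lower at that level, and the median was 0.29 log2. The 7 exporters of cholesterol and phospholipid (Abca1, Abca7, Abcb4, Abcg1, Abcg4, Abcg5 and Abcg8) had 0 called in limma, 2 lower at an unadjusted p under 0.05 and a median of -0.06.

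Abcb6 (probeset 10355742), a transporter of porphyrins found in the outer mitochondrial membrane and other membranes, showed the difference in the largest number of settings. Its control pools read 8.74, 8.88, 8.73, 8.90 and 8.84 log2 on days 0, 2, 4, 7 and 14, and its heme pools 9.11, 9.23, 9.23 and 9.23 on days 2, 4, 7 and 14. Every heme pool lay above every control pool, and the gap to the same day's control pool was already 0.23 on day 2. The means were 8.82 ± 0.08 (SD, n = 5) and 9.20 ± 0.06 (SD, n = 4), a 1.30-fold rise (log2 fold change 0.38, SE 0.05, limma adjusted p = 0.00668). Blocked by day, the adjusted p was 0.0455. It was called in each of the 9 fits with 1 pool left out, and lost when both pools of day 7 were left out (adjusted p = 0.0667).

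Abcb8 (probeset 10520154), part of a mitochondrial transporter linked to iron and potassium handling, read 8.13, 8.19, 8.11, 8.11 and 8.21 in the control pools and 8.22, 8.31, 8.38 and 8.35 in the heme pools. Its groups did not overlap, but the gap on day 2 was 0.03 log2 and the difference of 0.165 did not pass over all genes (SE 0.04, adjusted p = 0.130). Abcb10, which supports heme synthesis in the inner membrane, had a log2 fold change of -0.01, with a 95% interval from -0.12 to 0.09. Of 8 measured genes of heme synthesis 0 were called in limma (1 higher and 1 lower at an unadjusted p under 0.05), the largest difference being 0.17 for the erythroid synthase Alas2 (adjusted p = 0.292).

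Abcb1a (probeset 10519527) encodes P-glycoprotein of the intestine, which returns drugs and other hydrophobic compounds to the lumen. Its control pools read 12.05, 12.17, 12.08, 12.23 and 12.16 log2 and its heme pools 12.35, 12.36, 12.38 and 12.39. The heme pools were close to each other and all above the control pools. The rise was small, 1.18-fold (log2 fold change 0.23, SE 0.04, adjusted p = 0.0187), and blocked by day it was no longer called (adjusted p = 0.0523). Leaving out 1 pool ended the call for 3 control pools (days 2, 4 and 14) and 2 heme pools (days 7 and 14), with adjusted p up to 0.0833.

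Abcb1a, Abcb1b and Abcb4 are neighbours in the RefSeq order, and Abcb1a was the 1 called among them. Abcb1b, the other mouse P-glycoprotein gene, was at 4.80 ± 0.14 (SD, n = 5) in control and 4.91 ± 0.06 (SD, n = 4) in heme pools, a difference of 0.11 (95% interval from -0.05 to 0.28, adjusted p = 0.431). Abcb4, the phosphatidylcholine exporter of bile, had a difference of 0.01 with an interval from -0.30 to 0.31. Both intervals hold the 0.23 of Abcb1a, and the differences between these genes were not tested. Both lay near the filter, and since Abcb1a and Abcb1b are close copies, probes could in part read either.

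Abcc3 (probeset 10389894), a basolateral exporter of glucuronides and bile salts, separated the diets from day 2 on. It read 10.33, 10.37, 10.24, 10.35 and 10.29 log2 in the control pools and 10.58, 10.56, 10.72 and 10.83 in the heme pools. All heme pools lay above the control pools, with the higher values on days 7 and 14. The rise was 1.28-fold (10.32 ± 0.05, SD, n = 5, against 10.67 ± 0.13, SD, n = 4; log2 fold change 0.36, SE 0.06, adjusted p = 0.0187). Blocked by day it missed the threshold (adjusted p = 0.0523). Leaving out 1 pool ended the call for 3 control pools (days 0, 4 and 14) and for heme on day 7, where the adjusted p reached 0.0863.

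Abcg2 (probeset 10538640), the luminal exporter of sulfate conjugates, porphyrins and many drugs, fell just outside the threshold. Its control pools read 9.67, 9.81, 9.67, 9.77 and 9.73 log2 and its heme pools 9.93, 9.96, 10.19 and 10.22. The groups did not overlap, and the gap to the same day's control pool was 0.12, 0.30, 0.43 and 0.49 on days 2, 4, 7 and 14. The difference was 0.35 log2 (SE 0.07, adjusted p = 0.0514). It was called in 6 of 17 other settings, where the adjusted p went down to 0.0169 without the heme pool of day 2.

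Across the 31 members, 5 had all 4 heme pools above all 5 control pools (Abcb1a, Abcb6, Abcb8, Abcc3 and Abcg2), 16.1% against 3.26% of all genes tested, and 0 had them below, against 2.33%. By mean level those 5 ranked 1, 4, 6, 2 and 3 among the 41 measured members, and no share was computed for genes of like level. The 0 below depends on ties, which counted as overlap here and over all genes. In Abca1 and Abca3 the highest heme pool shared its value with the lowest control pool (7.04 and 8.02 log2), and no heme pool was above it. On all 4 days 8 members were above the same day's control pool (25.8%, against 10.9% of all genes), and 5 were below it (16.1%, against 12.0%). The 8 were the same as the 8 highest log2 fold changes, and the 5 below were Abca1, Abca3, Abca12, Abca8a and Abcc9.

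**Figure D2:**
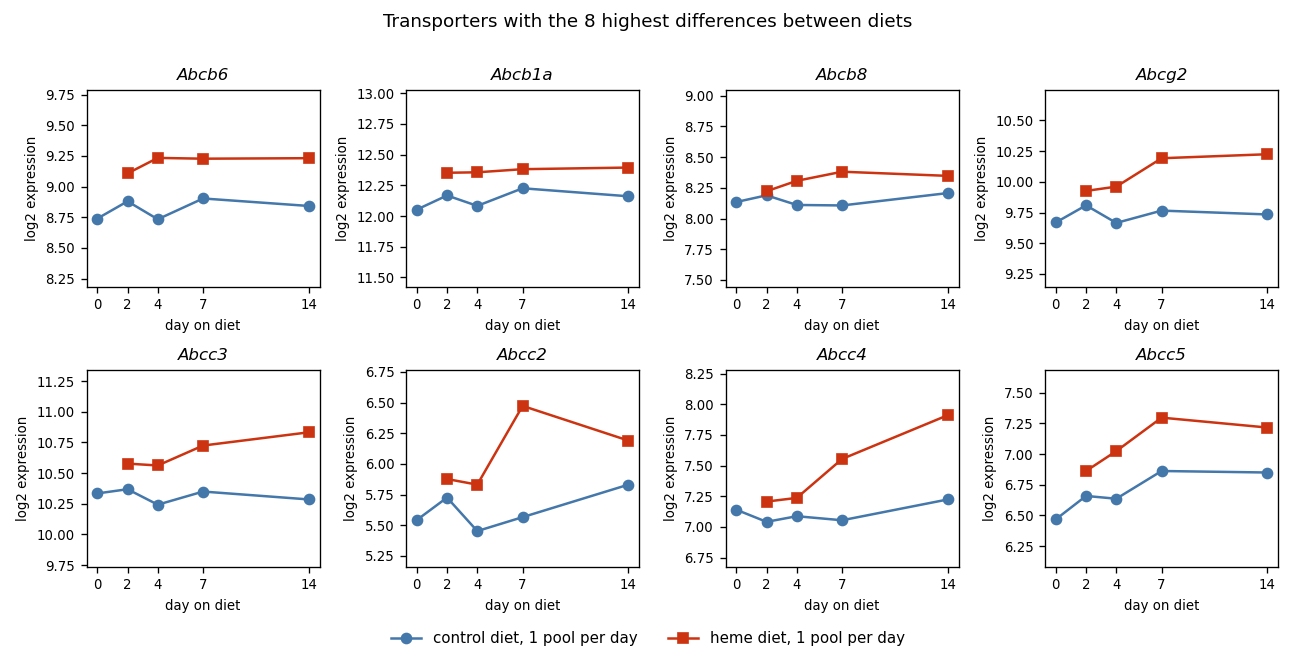
Log2 expression of 8 transporters by day on diet, 1 pool per point, control diet as circles and heme diet as squares; all panels span the same log2 range. Every heme point lies above the control point of its day, with a gap from day 2 on for Abcb6 and Abcb1a and wider gaps on days 7 and 14 for Abcg2, Abcc3 and Abcc4.

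Abcc2, Abcc4 and Abcc5 had larger standard errors than Abcc3 and did not pass over all genes. Abcc2 (probeset 10463308), the apical exporter of glutathione and glucuronide conjugates, read 5.54, 5.73, 5.45, 5.57 and 5.83 log2 in control and 5.88, 5.83, 6.47 and 6.19 in heme pools. Its heme pool of day 7 stood highest, 0.91 above the control pool of that day, and the heme pool of day 4 met the control pool of day 14. The difference was 0.47 log2 (SE 0.13, adjusted p = 0.162). Abcc4 (probeset 10422280), an exporter of bile salts, cyclic nucleotides and prostaglandins, read 7.14, 7.04, 7.09, 7.05 and 7.22 in control and 7.21, 7.24, 7.55 and 7.91 in heme pools. The heme pools of days 2 and 4 stood beside the highest control pool, while those of days 7 and 14 were clear of it. The difference was 0.37 (SE 0.13, adjusted p = 0.225).

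Abcc5 (probeset 10438478), an exporter of nucleotide analogs and cyclic nucleotides, had its lowest control value on day 0. Its control pools read 6.47, 6.66, 6.64, 6.86 and 6.85 log2 in order of day and its heme pools 6.86, 7.02, 7.30 and 7.22. The heme pool of day 2 overlapped the late control pools, although each heme pool was above its own day's control, by 0.20, 0.39, 0.43 and 0.37. The difference between diets was 0.40 (SE 0.10, adjusted p = 0.142, or 0.0716 blocked by day). Over the 5 control pools its slope was 0.10 log2 per unit of log2(day + 1) (SE 0.02, adjusted p = 0.677). No member had a called slope in limma, against 0.0% of all genes tested, and 2 of 31, Abcc5 and Abca8a, had an unadjusted p under 0.05, against 1073 of all genes.

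Abcc1, a broad exporter of glutathione conjugates, stood at 7.79 ± 0.04 (SD, n = 5) and 7.79 ± 0.02 (SD, n = 4), and its difference of 0.0042 had a 95% interval from -0.07 to 0.08. The sizes seen in Abcc2 to Abcc5 lie outside that interval, but they have errors of their own. The 95% interval of Abcc4, for example, ran from 0.08 to 0.65. The differences between these genes were not tested. Abcc6 and Abcc10 had log2 fold changes of -0.04 and -0.07.

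Abcg5, with the lowest log2 fold change of the 31, and Abcg8, below which only Abca8a also lay, together return plant sterols and cholesterol to the lumen. Abcg5 (probeset 10453318) read 7.17, 6.99, 6.99, 7.42 and 6.98 log2 in control and 7.19, 6.75, 6.21 and 6.10 in heme pools. Its heme pool of day 2 lay inside the control range, the other 3 below it, and the gap to the same day's control was 1.22 on day 7 and 0.88 on day 14, both with heme lower. Abcg8 (probeset 10447239) read 5.80, 5.65, 5.63, 5.83 and 5.45 in control and 5.68, 5.55, 5.18 and 5.30 in heme pools. Abcg8 was within the control range on days 2 and 4 and below it on days 7 and 14. Over all days neither passed, with log2 fold changes of -0.55 for Abcg5 (SE 0.20, adjusted p = 0.240) and -0.24 for Abcg8 (SE 0.11, adjusted p = 0.305). Without the heme pool of day 2 Abcg5 was called (-0.76, adjusted p = 0.0485).

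In subfamily A, where 0 of 9 tested members were called in limma between diets, 5 were among the 8 lowest differences and the other 4 lay between -0.016 and 0.021. Abca1 (probeset 10512949), which loads cholesterol onto apolipoprotein A-I, read 7.11, 7.04, 7.08, 7.26 and 7.14 log2 in control and 7.00, 7.02, 7.04 and 6.76 in heme pools, with day 14 apart from the other 3 heme pools. Abca3 (probeset 10442396), a phospholipid transporter of lamellar bodies in lung, read 8.12, 8.11, 8.03, 8.02 and 8.02 in control and 8.02, 8.01, 7.91 and 7.71 in heme pools. Abca12 (probeset 10355343), a ceramide transporter of skin, read 8.55, 8.97, 8.63, 8.73 and 8.71 in control and 8.77, 8.55, 8.46 and 8.24 in heme pools. In Abca12 the heme pools of days 7 and 14 were below all control pools. In Abca3 those of days 4, 7 and 14 were, with day 2 at the lowest control value. In Abca1 those of days 2, 4 and 14 were, with day 7 at the lowest control value. The log2 fold changes over all days were -0.17, -0.15 and -0.21, with adjusted p of 0.262, 0.283 and 0.331. Abca5 (probeset 10392642), found in lysosomes, read 5.97, 5.97, 5.95, 6.14 and 5.97 in control and 5.97, 5.97, 5.95 and 5.81 in heme pools, which overlapped, and its difference was -0.07 (adjusted p = 0.496). Abcg1, which exports cholesterol to high-density lipoprotein, had a difference of -0.06 with a 95% interval from -0.21 to 0.09.

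**Figure D3:**
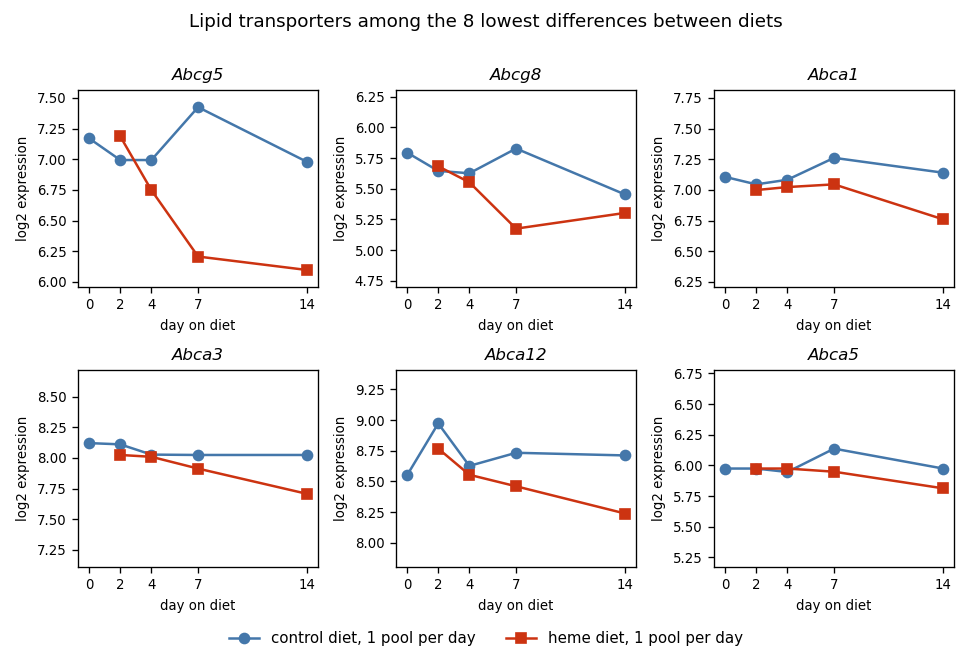
Log2 expression of 6 lipid transporters by day on diet, 1 pool per point, control diet as circles and heme diet as squares; all panels span the same log2 range. Abcg5 and Abcg8 meet the control values on day 2 and lie below all control values on days 7 and 14.

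The other low values belong to genes known from cells of the gut wall. Abca8a (probeset 10392522), a lipid transporter, read 5.63, 5.54, 5.94, 6.04 and 6.24 log2 in control and 5.15, 5.23, 6.01 and 5.42 in heme pools (difference -0.42, SE 0.19, adjusted p = 0.294). Abcc9 (probeset 10549108), the sulfonylurea receptor of muscle and pericyte potassium channels, read 6.37, 6.08, 6.58, 7.27 and 6.88 in control and 5.99, 6.33, 6.78 and 6.57 in heme pools (difference -0.22, SE 0.23, adjusted p = 0.624). Both overlapped between diets and spread widely within each. Smooth muscle markers moved over the same pools, with list means from -1.14 (day 2) to 1.52 (day 7) around the control mean in the control pools and -1.29, -0.53, 0.80 and -1.05 in the heme pools, and fibroblast markers stood at -0.73, -0.34, 0.24 and -0.02 in the heme pools. The part of these cells in the 2 genes was not tested.

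**Figure D4:**
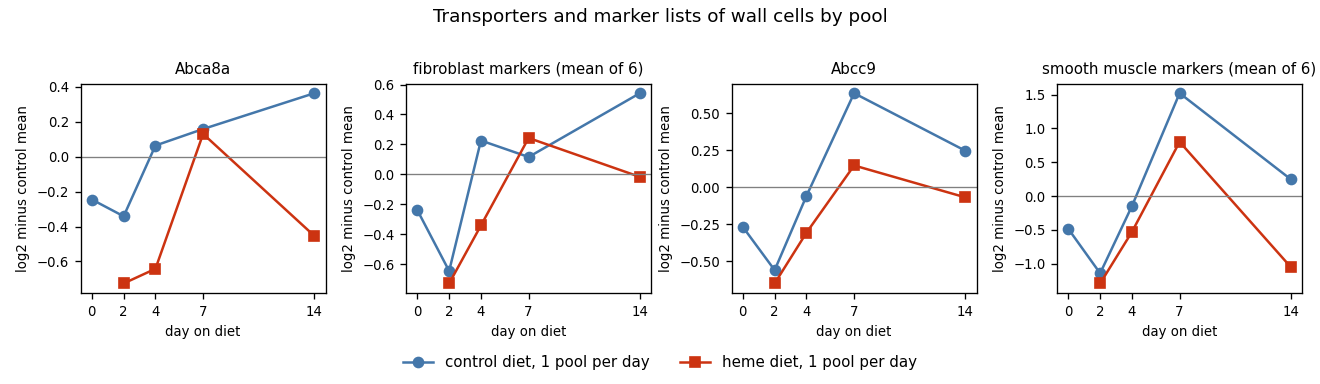
Abca8a, Abcc9 and the means of 6 fibroblast and 6 smooth muscle markers by day, each as log2 minus its control mean, 1 pool per point, control diet as circles and heme diet as squares. Abcc9 and the smooth muscle mean are lowest on day 2 and highest on day 7 in both diets.

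By day, each heme pool was set against the same 5 control pools, so the 4 comparisons share their controls and a heme day has no replicate of its own. The lone pool is assumed to vary like the control pools. On day 2 no member was called in limma (0.0% of all genes were called), with 4 of 31 members higher and 1 lower at an unadjusted p under 0.05, against 730 and 655 of all genes. On day 4 none was called (0.0% of all genes), with 5 higher and 1 lower at that level, against 617 and 434 of all genes. On day 7 Abcc3 (log2 fold change 0.41, SE 0.05, adjusted p = 0.0326) and Abcg2 (0.46, SE 0.06, adjusted p = 0.0332) rose, 6.45% of members against 1.64% of all genes (0.876% higher and 0.762% lower). Both calls were lost in each fit that left out 1 control pool (adjusted p up to 0.0992). Abcc2 was at 0.85 on that day (adjusted p = 0.0529) and Abcg5 at -0.90 (adjusted p = 0.0669). At an unadjusted p under 0.05, 8 members were higher and 7 lower on day 7, against 1028 and 1482 of all genes. Among the 10 exporters of drugs and conjugates 6 were higher and 2 lower at that level, the lower ones being Abcc6 and Abcc10.

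Day 14 gave most calls, in transporters and in the array as a whole. Of 31 members 8 rose and 3 fell, 35.5% in all, against 27.1% of all genes tested, a share not far from the background. In the higher direction it was 25.8% of members against 11.3% of genes, and in the lower 9.68% of members against 15.8% of genes. With each array centred on its median, the split of all called genes turned from 1689 higher and 2362 lower to 2627 higher and 1558 lower, and 12 members were called, the same 11 and Abcb9.

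The genes that rose on day 14 were Abcc4 (0.80 log2, adjusted p = 0.00413), Abcc2 (0.57, adjusted p = 0.0334), Abcc5 (0.52, adjusted p = 0.0487), Abcc3 (0.52, adjusted p = 0.00455), Abcg2 (0.50, adjusted p = 0.00626), Abcb6 (0.41, adjusted p = 0.0145), Abcb1a (0.26, adjusted p = 0.0342) and Abcb8 (0.20, adjusted p = 0.0395). All are of subfamilies B, C and G, and the 3 tested genes of the bile salt export list (Abcc2, Abcc3 and Abcc4) were among them. Abcg5 fell 2.02-fold (-1.02 log2, SE 0.17, adjusted p = 0.0120), Abca1 1.29-fold (adjusted p = 0.0252) and Abca3 1.28-fold (adjusted p = 0.0102). Abcc3, Abcc4, Abcg2, Abcb6, Abca3 and Abcg5 were called in each fit with 1 control pool left out. Abcc5 was called in 0 of these 5 fits (adjusted p up to 0.102), Abcb1a, Abcb8 and Abcc2 in 2 each and Abca1 in 3. Abca3 and Abcg5 each gave an identical value in 2 control pools, so their spread may be understated.

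Whether the diet difference was larger late (days 7 and 14) than early (days 2 and 4) was tested over 8 pools. No member was called in limma (0.0% of all genes), and 3 were higher and 1 lower at an unadjusted p under 0.05, against 307 and 683 of all genes. Abcg5 had the largest value, -1.02 log2 (SE 0.25, adjusted p = 0.532), and Abcc4, Abcg2 and Abcc3 stood at 0.44, 0.25 and 0.20 (adjusted p = 0.718, 0.658 and 0.746). For Abcb6 and Abcb1a the values were -0.01 and -0.03. This test showed a late gain for none of the 31 tested transporters.

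Genes that work beside the transporters were taken from fixed lists. For each list, the share of all genes tested that was called between diets was 0.669% (0.595% higher and 0.0736% lower). Of 10 measured ABC proteins outside the symbol rule, 1 rose, the peroxisomal fatty acid transporter Abcd3, by 0.59 log2 (10.78 ± 0.10, SD, n = 5, to 11.37 ± 0.15, SD, n = 4; adjusted p = 0.00601, or 0.0186 blocked by day). Of the 10, 5 had a log2 fold change above 0. Cftr, Tap1 and Tap2, whose symbols give no subfamily, had lower means on heme (9.72, 6.93 and 7.25 against 9.81, 7.06 and 7.40). None of 15 tested regulators of transporter genes, among them the receptors Nr1h3, Nr1i2 and Ppara and the factor Nfe2l2, was called in limma (0 higher and 1 lower at an unadjusted p under 0.05). The largest difference was -0.14 for Ppard (adjusted p = 0.173). Of 8 tested targets of the oxysterol receptors LXR outside the ABC genes, 1 rose, the lysophospholipid acyltransferase Lpcat3 (0.54, adjusted p = 0.0187). That call was lost in 7 of the 9 fits with 1 pool left out, all but those without heme day 2 or heme day 4 (adjusted p up to 0.0839). At an unadjusted p under 0.05 the list had 2 higher and 2 lower, among the lower Mylip (8.16 ± 0.07, SD, n = 5, against 7.79 ± 0.22, SD, n = 4; adjusted p = 0.121). On day 14, when 11.3% of all genes rose and 15.8% fell, 2 of the 8 rose (Lpcat3 and Lpl) and 2 fell (Mylip and Smpdl3a). These genes were named here after their values were seen. ABC genes that the same receptors target, of which Abca1 and Abcg1 are only examples, had the values given above.

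Of 7 tested genes of bile acid uptake and intracellular handling 1 fell, the cytosolic bile acid carrier Fabp6 (-0.83 log2, adjusted p = 0.0390, or 0.0923 blocked by day). The list median was -0.12 and 2 of the 7 were above 0. The call of Fabp6 was lost in 8 of the 9 fits with 1 pool left out, all but that without control day 14 (adjusted p up to 0.133). On day 14, when 15.8% of all genes fell, 3 of the 7 fell, and the other two, named after their values were seen, were the apical uptake carrier Slc10a2 (-1.30, adjusted p = 0.00229) and the basolateral subunit Slc51a (-0.82, adjusted p = 0.00671). Slc10a2 read 10.44, 10.61, 10.65, 10.49 and 10.52 in control and 10.31, 10.11, 9.55 and 9.24 in heme pools, all below the control pools. Over all days its difference was -0.74 (adjusted p = 0.125).

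Of 5 tested genes of cholesterol uptake and trafficking 1 rose, the lipoprotein receptor Scarb1 (0.56, adjusted p = 0.0313, or 0.0658 blocked by day). Its call was lost in 7 of the 9 fits with 1 pool left out, all but those without control day 14 or heme day 2 (adjusted p up to 0.113). Of 13 tested conjugating enzymes, which make substrates for subfamily C and Abcg2, 0 were called between diets in limma (2 higher and 3 lower at an unadjusted p under 0.05), and the largest difference was -0.52 for the sulfotransferase Sult1c2 (adjusted p = 0.121). On day 14, when 27.1% of all genes were called, 8 of the 13 were called (61.5%). The glutathione transferases Gsta3, Gstm1, Gstm2, Gstm3 and Gstp1 rose, Gsta3 by 1.23 log2, and Sult1a1, Sult1c2 and Ugt2b35 fell, Sult1a1 by 0.99. On that day 3 of the 8 heme synthesis genes were called (Alas1 and Alad higher, Ppox lower), as were 4 of the 5 of cholesterol uptake and trafficking (Scarb1 and Mttp higher, Npc1 and Npc2 lower) and 3 of the 10 other ABC proteins (Abcd3 higher, Cftr and Tap2 lower). None of the 15 regulators was called in limma that day, with 0 higher and 1 lower at an unadjusted p under 0.05. The genes called on day 14 alone were named after their values were seen.

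The members not yet named lay close to 0. Abca2, Abca7, Abca9, Abca17, Abcb9, Abcc8, Abcg3 and Abcg4 had log2 fold changes between -0.04 and 0.12, none called. The 10 members under the filter were Abca4, Abca6, Abca8b, Abca13, Abca14, Abca15, Abca16, Abcb5, the bile salt export pump Abcb11 and Abcc12, 7 of them of subfamily A. Their diet means lay between 3.01 and 4.69 log2, and all 10 overlapped between diets. Values this low may hold little signal, and these genes were not tested. Among the 31 tested members, 9 gave identical values in at least 2 control pools, so their spread may be understated. The 9 include Abcg5 (6.99 on days 2 and 4) and Abca3 (8.02 on days 7 and 14), both called lower on day 14.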

How the data were processed

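Colon epithelium RNA pools of 5 control and 4 heme groups were measured on Affymetrix whole-transcript arrays, 1 per pool. The values are log2 expression per probeset as deposited by the authors, and the submitters' processing notes name RMA, a method of background correction, quantile normalization across arrays and median polish over probes. No version was at hand. Precision is limited by the number of arrays.

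Of 35556 probesets, 21789 had 1 gene symbol in the platform annotation, 1621 several (left out) and 12146 were unnamed here; 21698 were matched to RefSeq by Entrez ID. Genes with a mean at or above the 25th percentile were tested with limma 3.58.1 (lmFit, eBayes with an intensity trend) in R 4.3.3, Benjamini-Hochberg adjusted over all 14953 genes tested and called under 0.05. The script was tested on simulated data. Python 3.11.15 and matplotlib 3.10.9 were used for tables and figures. Intervals of 95% come from the same fits.

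The labels share the day, not animals, between diets. Deviations of the same day's pools correlated with r = 0.651, -0.005, 0.333 and 0.168 on days 2, 4, 7 and 14, and the highest correlation with a pool of another day was 0.014, 0.106, 0.422 and 0.265, above the same-day value on days 4, 7 and 14. Values blocked by day are given where they change a call. The members and lists were chosen with earlier results of these data known. Named members are those called in any of 7 comparisons, the 8 highest and 8 lowest log2 fold changes between diets, and a fixed set of well-known transporters; of other lists, called genes or the largest difference. Protein sequences were not used here.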

Additional observations from a re-analysis of the deposited data

Results flagged for a closer look

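For the 16 named members (those called in a comparison or among the 8 highest or 8 lowest differences between diets), the highest and lowest pool of each diet was compared with its nearest neighbour, as the gap divided by the range of the group. Of 32 groups, 4 held a pool beyond Dixon's 95% limit, where chance gives about 1 in 20. In the heme pools Abcb6 was lowest on day 2, at 9.11 log2, with a ratio of 0.949. Abca1 was lowest in the heme pool of day 14, at 6.76, with a ratio of 0.837. Abca5 was lowest in the same pool, at 5.81 (ratio 0.840), and in the control pools it was highest on day 7, at 6.14 (ratio 0.852).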

How the results depend on the processing

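Alternatives changed the filter, the probeset rule, the trend, the centring, the pools and the block. Leaving out both pools of day 7 was chosen after seeing the data. No named member changed the direction of its difference in any of them. Between diets, 3 members were called, 1 (Abcb6) with the day as the replicate block, 0 without both pools of day 7, and 1 to 6 with 1 pool left out. The count of 1 came from leaving out control day 4, control day 14 or heme day 7, and the 6 from leaving out heme day 2. On day 7, 2 were called, 1 without a filter, 5 with the filter at the median, 0 without a trend, 6 with centred arrays, and 0 to 0 with 1 control pool left out. On day 14, 11 were called, 10 to 12 under other settings and 7 to 10 with 1 control pool left out (7 without day 0). On days 2 and 4, late against early, and over control time, 0 were called in every setting run. The replicate block changed no other call of a member. The median of subfamily A between diets was -0.0156 without a filter, -0.159 with the filter at the median and from -0.0999 to -0.0412 with 1 pool left out. With the filter at the median it was 0.199 for B and 0.181 for C. With 1 pool left out B ranged from 0.0859 to 0.149, C from 0.0411 to 0.121 and G from -0.0878 to -0.0237. The number of arrays and dim probes limit what small differences can show.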
